A study of Mus musculus with 6 samples.

Results

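Genes of apical-basal polarity, microvilli and apical membrane trafficking were examined in the mouse uterus on the day the embryo attaches. The set of 39 genes was chosen by name for these roles, with earlier results of these data known, from the 56748 genes listed for each uterus, and all 39 were found. It held 8 genes of the Crumbs and PAR apical complexes, 6 of the basolateral Scribble module, 4 for ERM linkers and podocalyxin, 9 of the microvillus core and its motors and adhesion, 2 Shroom genes, 7 of apical trafficking and 3 other apical surface and scaffold genes. Females, 3 control and 3 *Gp130* ecKO, gave 1 whole uterus each at 1600 h on day 4 of pregnancy, and poly(A) RNA was sequenced from strand-specific libraries. Their background is C57BL/6 in the labels and C57BL/6J in the methods of the study. The *Gp130* ecKO females carried *Ltf* iCre/+ and *Gp130* flox/flox, where the lactoferrin promoter drives Cre in the uterine epithelium of adult females, and *Gp130* encodes the shared receptor subunit of LIF and IL-6 cytokines. The controls are labelled WT, and the methods of the study describe control females without iCre that were either *Gp130* flox/flox or wildtype, so which of the 2 each control was is not given. No agent was given to either group as far as the labels say. Nothing says how the 6 uteri relate beyond their groups, so a p-value measures the spread between these uteri.

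An epithelial cell keeps its free, apical face apart from the rest of its membrane. The Crumbs and PAR complexes with atypical protein kinase C (aPKC) mark the apical side, the Scribble, DLG and LGL proteins mark the basolateral side, and the modules restrict each other. ERM proteins tie the apical membrane to actin, bundled actin fills the microvilli, and RAB11-type carriers bring membrane and receptors to the surface. In the uterine luminal epithelium this surface is known to lose microvilli and to become less polarized around attachment.

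Total counts ranged from 13960748 in control 3 to 25906443 in control 2, so the values of weakly expressed genes are least precise in control 3. *Il6st*, the symbol of *Gp130*, was listed at 631, 678 and 452 CPM (counts relative to the library size as scaled by edgeR's TMM method) in controls 1, 2 and 3 and at 388, 349.8 and 362 in *Gp130* ecKO 1, 2 and 3, in RNA of whole uteri that still held non-recombined stroma and muscle. Of the controls, control 2 lay nearest to the *Gp130* ecKO uteri in the genes that differed: among the 4149 genes at an unadjusted p under 0.05, it was the nearest in 64.3%, and among the 18 such polarity genes in 13 (72.2%). *Gp130* ecKO 1 was the *Gp130* ecKO uterus farthest from the controls in 17 of these 18 genes (94.4%), against 55.6% of the 4149. The gland gene *Prss29* also set this uterus apart, at 6546 CPM against 84.9 and 48.9 in *Gp130* ecKO 2 and 3 and 523, 1.70 and 23.7 in the controls. *Spink1*, another gland gene, was at 219.5 CPM in it against 17.3 and 11.2 in *Gp130* ecKO 2 and 3, and the controls ranged from 39.7 to 327. The other gland markers did not single out this uterus: in *Gp130* ecKO 1, 2 and 3, *Foxa2* was at 25.0, 11.5 and 43.4 CPM, *Cxcl15* at 17.3, 22.3 and 93.8 and *Lif* at 44.8, 48.8 and 38.3. The summed CPM of 6 smooth muscle markers was 475 in *Gp130* ecKO 1, the lowest of the 6 uteri, 568 in control 3 and from 898 to 2994 in the others. Over all genes, control 3 was the control least like the rest, with correlations of 0.946 with both other controls against 0.958 between controls 1 and 2. The part of either in the polarity results was not tested, and values without control 2 and without *Gp130* ecKO 1 are given where they matter. Markers of the preimplantation embryo were at or near 0 in every uterus, with a summed CPM of 0.54 at most.

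The members differed in both size and direction between the groups, and the groups were apart in some members of each role. Of the 39 genes, 36 passed the filter on low counts. By edgeR's quasi-likelihood F test at a false discovery rate (FDR) under 0.05 and more than 2-fold, 0 of the 36 were called, beside 0.157% of the 16605 genes tested. At an unadjusted p under 0.05, 16 were higher in *Gp130* ecKO uteri, beside 12.1% of all genes tested, and 2 were lower, beside 12.9%. In CPM, every *Gp130* ecKO uterus lay above every control uterus in 15 members (all genes tested: 15.7%), below in 2 (15.6%), and the groups overlapped in 19. These counts describe genes picked with results of the same uteri known. The median log2 fold change of the members was 0.43, and that of all genes tested was −0.05. DESeq2 called 10 members higher and 1 lower, beside 4.42% and 4.87% of all genes. The exact test of edgeR called 9 higher and 1 lower, beside 3.75% and 3.79%. With control 2 left out, the quasi-likelihood test called 8 higher and 0 lower, beside 3.4% and 1.81% of genes, and with any other uterus left out it called 0 members. The 8 were *Prkci*, *Dlg3*, *Llgl2*, *Shroom2*, *Rab17*, *Plet1*, *Pkhd1* and *Homer1*. An exact two-sided permutation test of 3 uteri against 3 cannot go below 0.1 for a single gene.

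**Figure D1:**
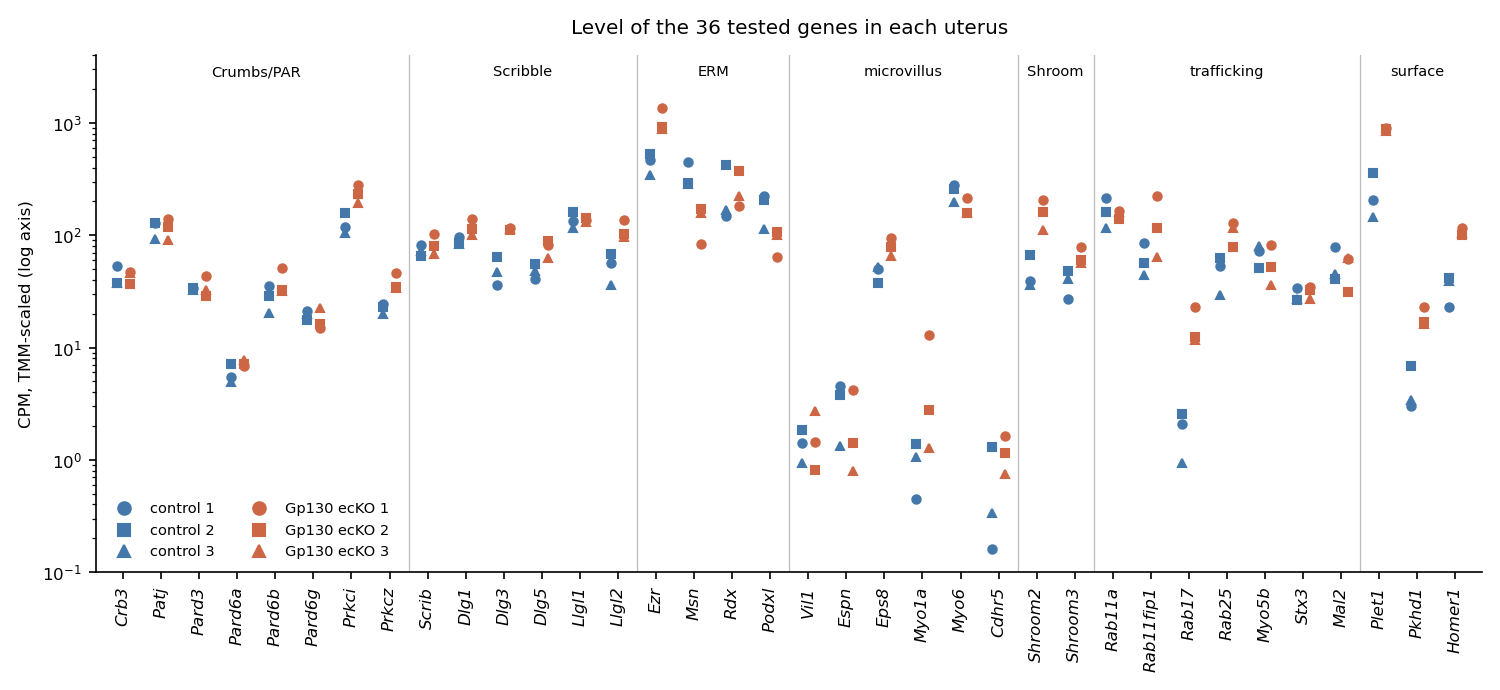
CPM after TMM scaling (log axis) of the 36 tested genes in each of the 3 control and 3 *Gp130* ecKO uteri, ordered by role; values below 0.1 do not occur. The columns of *Rab17*, *Shroom2*, *Plet1*, *Pkhd1* and *Homer1* show the groups apart, and those of *Crb3*, *Patj*, *Pard3* and *Rab11a* overlap.

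The upstream sequence is shown for the members with the smallest p, picked by p in these same uteri. Whether these genes share regulation was not tested. The sequences below are the 250 bases before the annotated start of the canonical transcript (GENCODE M39 on GRCm39), for the 5 members with the smallest p. They read 5′ to 3′ on the gene's strand, with capitals for matches on either strand to the E-box CAGGTG (a sequence bound by Snail and Zeb family repressors of epithelial genes) or to AGGTCA, a single arm of the estrogen receptor's element. The window of *Rab17* is chr1:90897384-90897633 on the minus strand and holds 1 E-box, beginning 209 bases before the start.
Rab17: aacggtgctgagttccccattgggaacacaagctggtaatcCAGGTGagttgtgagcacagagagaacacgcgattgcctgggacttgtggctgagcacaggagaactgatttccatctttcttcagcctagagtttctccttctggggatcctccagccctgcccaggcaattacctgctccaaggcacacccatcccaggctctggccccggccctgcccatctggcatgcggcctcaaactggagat
Homer1: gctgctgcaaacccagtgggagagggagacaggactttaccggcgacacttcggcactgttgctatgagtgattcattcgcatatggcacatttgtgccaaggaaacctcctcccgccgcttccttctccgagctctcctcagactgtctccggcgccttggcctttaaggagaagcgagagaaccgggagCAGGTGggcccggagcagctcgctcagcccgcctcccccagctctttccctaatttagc
Plet1: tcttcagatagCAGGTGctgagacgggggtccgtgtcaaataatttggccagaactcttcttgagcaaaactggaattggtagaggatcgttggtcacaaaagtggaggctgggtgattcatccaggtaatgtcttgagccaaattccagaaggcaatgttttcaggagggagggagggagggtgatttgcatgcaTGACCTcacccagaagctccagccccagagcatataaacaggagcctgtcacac
Shroom2: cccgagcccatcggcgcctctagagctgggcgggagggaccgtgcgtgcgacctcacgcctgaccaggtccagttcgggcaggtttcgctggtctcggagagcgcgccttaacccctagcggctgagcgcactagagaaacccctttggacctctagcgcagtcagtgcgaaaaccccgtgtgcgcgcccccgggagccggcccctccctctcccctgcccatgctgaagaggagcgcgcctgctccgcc
Pkhd1: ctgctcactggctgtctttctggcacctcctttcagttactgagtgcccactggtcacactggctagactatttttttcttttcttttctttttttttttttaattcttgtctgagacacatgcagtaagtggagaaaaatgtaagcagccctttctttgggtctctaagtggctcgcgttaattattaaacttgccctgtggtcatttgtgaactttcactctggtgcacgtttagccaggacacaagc
The window of *Homer1* is chr13:93439921-93440170 on the plus strand, inside the gene's annotated extent because other transcripts start further upstream, with 1 E-box at 59 bases. That of *Plet1* is chr9:50405567-50405816 on the plus strand, with 1 E-box at 239 bases and the reverse of AGGTCA at 54 bases. That of *Shroom2* is chrX:151552683-151552932 on the minus strand and holds neither, nor does that of *Pkhd1*, chr1:20688289-20688538 on the minus strand. The palindrome of STAT factors, TTCNNNGAA, was in none of the 5.

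Over the 39 promoters, CAGGTG was found on either strand in 16 (41.0%), and in 17.7% of the 21757 promoters of the same length. The 16 divided into 8 of the 16 members that were higher at an unadjusted p under 0.05, 0 of the 2 that were lower and 8 of the other 21. TTCNNNGAA was in 4 of the 39 (10.3%) against 7.7% of all, and AGGTCA in 5 (12.8%) against 13.1%. In the printed windows no match overlapped another. These are matches of letters in a fixed window and say nothing on binding in these uteri.

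The small group of other apical surface and scaffold genes held 3 members. All 3 were higher in every *Gp130* ecKO uterus, beside 15.7% of all genes tested. *Plet1*, which encodes a GPI-anchored surface protein of epithelia, was at 204, 356 and 145 CPM in the controls and at 895, 882 and 844 in *Gp130* ecKO uteri. The *Gp130* ecKO values lay close together, with a mean of 874 ± 26.8 (SD, n = 3) against 235 ± 109, on the log2 scale 1.89 higher (standard error 0.33, edgeR FDR 0.0636). In deposited TPM, a level per transcript length, *Plet1* was behind *Rab11a* and *Ezr* in the controls at 191 ± 85.6 and was the highest of the 39 in *Gp130* ecKO uteri at 753 ± 91.9. The antisense gene *Plet1os* covers 23.68% of the exonic bases of *Plet1* on the other strand, and the CPM of *Plet1os* was 2.27, 6.44 and 2.20 against 22.3, 21.8 and 18.3 (log2 fold change 2.50, FDR 0.0636). Whether counting used the strand is not given in the sources used here, so the reads of this pair may not be fully told apart.

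*Pkhd1* encodes fibrocystin, a large receptor-like protein of the apical surface and primary cilium of ducts. It was at 3.03, 6.83 and 3.40 CPM in the controls and 23.1, 16.8 and 16.2 in *Gp130* ecKO uteri, where control 2 was the highest control and still below all 3. The log2 fold change was 2.07 (standard error 0.37, FDR 0.0636). *Homer1*, a scaffold that links receptors and calcium channels and binds actin regulators, was at 22.8, 41.7 and 38.8 CPM against 115, 100.5 and 105. The fitted log2 difference was 1.63 (standard error 0.25, FDR 0.0548), and the *Gp130* ecKO uteri again differed little among themselves (107 ± 7.68 CPM). Without control 2 the FDR was 0.0116 for *Plet1*, 0.0154 for *Pkhd1* and 0.0205 for *Homer1*. Without *Gp130* ecKO 1 it was 0.180, 0.191 and 0.166, with log2 fold changes of 1.88, 1.89 and 1.58.

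Of the 7 trafficking genes, *Rab17* and *Rab25* were higher in every *Gp130* ecKO uterus, beside 15.7% of all genes tested. The groups overlapped in the other 5. *Rab17*, an epithelial RAB of the recycling endosome, had the largest fitted difference of the set: 2.06, 2.55 and 0.933 CPM in the controls and 22.9, 12.4 and 11.6 in *Gp130* ecKO uteri. The lowest *Gp130* ecKO uterus was thus several times above the highest control, and the fitted difference was 8.23-fold (log2 3.04, standard error 0.46, FDR 0.0548). Without *Gp130* ecKO 1 the log2 fold change of *Rab17* was 2.66 (FDR 0.149). The gene lies at chr1:90885855-90897383 on the minus strand. *Rab25*, the epithelial member of the RAB11 subfamily, was at 52.8, 62.5 and 29.3 against 128, 78.5 and 117 CPM, with a log2 fold change of 1.16 (standard error 0.31, FDR 0.102). *Rab11fip1*, an effector that couples RAB11 to membrane carriers, was at 84.8, 57.1 and 44.6 against 224, 115 and 63.5 CPM. Its groups overlapped, since *Gp130* ecKO 3 lay below control 1, and its log2 fold change of 1.11 (standard error 0.45, FDR 0.186) was 0.53 without *Gp130* ecKO 1. *Rab11a*, *Myo5b* (the motor that carries RAB11 membranes), *Stx3* (an apical fusion SNARE) and *Mal2* (a raft protein of apical delivery) overlapped between the groups, with log2 fold changes from −0.26 to 0.11. *Rab11a* was the highest of the 39 in control TPM at 406 ± 107, and its TPM in *Gp130* ecKO uteri was 396 ± 15.8.

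**Figure D2:**
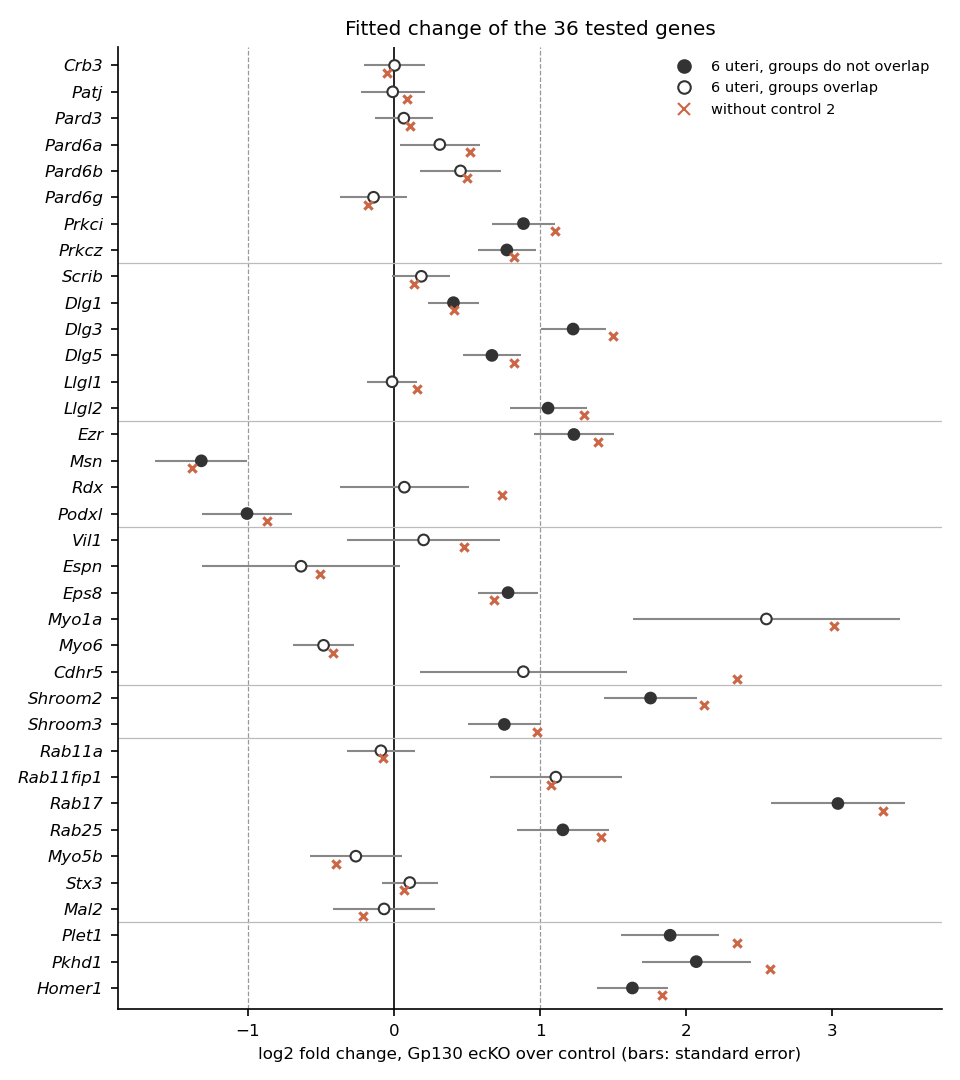
Log2 fold change of *Gp130* ecKO over control uteri for the 36 tested genes (circles, with the standard error as bars), filled where the groups were apart in CPM. Crosses give the value without control 2, and dashed lines mark 2-fold; *Rab17* at 3.04 and *Msn* at −1.32 are the extremes among genes whose groups do not overlap.

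The ERM group differed in both directions. *Ezr* encodes ezrin, the ERM protein of epithelial microvilli, and was at 471, 528 and 343 CPM in the controls and 1353, 914 and 884 in *Gp130* ecKO uteri. The groups were well apart, with a log2 fold change of 1.23 (standard error 0.27, FDR 0.0811). *Msn* encodes moesin, the ERM protein prominent in endothelium and leukocytes, and was at 447, 295 and 287 against 83.6, 172 and 157 CPM, with a log2 fold change of −1.32 (standard error 0.31, FDR 0.0877). *Podxl*, which encodes the anti-adhesive sialomucin podocalyxin of apical and vascular surfaces, was at 225, 208 and 114 against 64.5, 107 and 101 CPM, with a log2 fold change of −1.01 (standard error 0.31, FDR 0.117). The gap for *Podxl* was narrow, since control 3 lay just above *Gp130* ecKO 2. Without *Gp130* ecKO 1 the log2 fold change was 1.01 for *Ezr* (FDR 0.239), −1.06 for *Msn* (FDR 0.231) and −0.81 for *Podxl* (FDR 0.313). *Rdx*, for radixin, was at 150, 421 and 169 against 183, 371 and 222 CPM. Its groups overlapped, with 1 high uterus in each, and on the log2 scale it differed by 0.07 (standard error 0.44) with all uteri and by 0.74 without control 2.

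Some endothelial and epithelial markers differed between the groups as these genes did. The summed CPM of 6 endothelial markers was 1006, 667 and 386 in the controls and 217, 389.9 and 339 in *Gp130* ecKO uteri. These sums overlapped by control 3 and *Gp130* ecKO 2, and 4 of the 6 markers (*Pecam1*, *Kdr*, *Emcn* and *Tie1*) were lower in every *Gp130* ecKO uterus. As a ratio to this sum, *Msn* and *Podxl* overlapped between the groups, with log2 differences of −0.30 and 0.08. Immune cell markers did not move with *Msn*. The summed CPM of 6 of them overlapped between the groups, at 283, 268 and 353 against 516, 379 and 176. The summed CPM of 8 epithelial markers was 3753, 4054 and 2446 against 7313, 5601 and 5715, and 5 of the 8 were higher in every *Gp130* ecKO uterus. *Epcam*, a surface marker of all epithelia, was not among them, at 650, 379 and 348 against 429, 363 and 414 CPM. The epithelial sum includes *Krt8* and *Cdh1*, whose proteins the study reports by staining as more abundant in *Gp130* ecKO epithelium. This sum therefore need not follow the amount of epithelium. As a ratio to the epithelial sum, 5 of the 36 members were higher in every *Gp130* ecKO uterus, beside 1.99% of all genes tested, 15 were lower, beside 60.3%, and 16 overlapped. The sum itself was higher in every *Gp130* ecKO uterus, so a gene at an equal CPM in both groups is lower as a ratio to it. The 5 were *Rab17* (log2 difference 2.25), *Pkhd1* (1.28), *Plet1* (1.11), *Shroom2* (0.89) and *Ezr* (0.34). The other members higher in CPM in every *Gp130* ecKO uterus were not higher without overlap in this ratio. *Homer1* (0.79), *Dlg3* (0.38), *Rab25* (0.31), *Llgl2* (0.20), *Prkci* (0.01), *Shroom3* (−0.11), *Eps8* (−0.11), *Prkcz* (−0.12) and *Dlg5* (−0.22) overlapped between the groups. *Dlg1* was lower in every *Gp130* ecKO uterus (−0.49). The summed CPM of 7 stromal markers was lower, at 3060, 4030 and 3117 against 1813, 2159 and 2470. That of 4 mesothelial markers was 250.2, 168 and 167 against 117, 92.3 and 67.1, where *Wt1* was lower in every *Gp130* ecKO uterus and the other 3 overlapped. In RNA of a whole organ, more cells of a type and more RNA of a gene per cell cannot be told apart, and the part of these markers in the differences of other members was not tested.

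**Figure D3:**
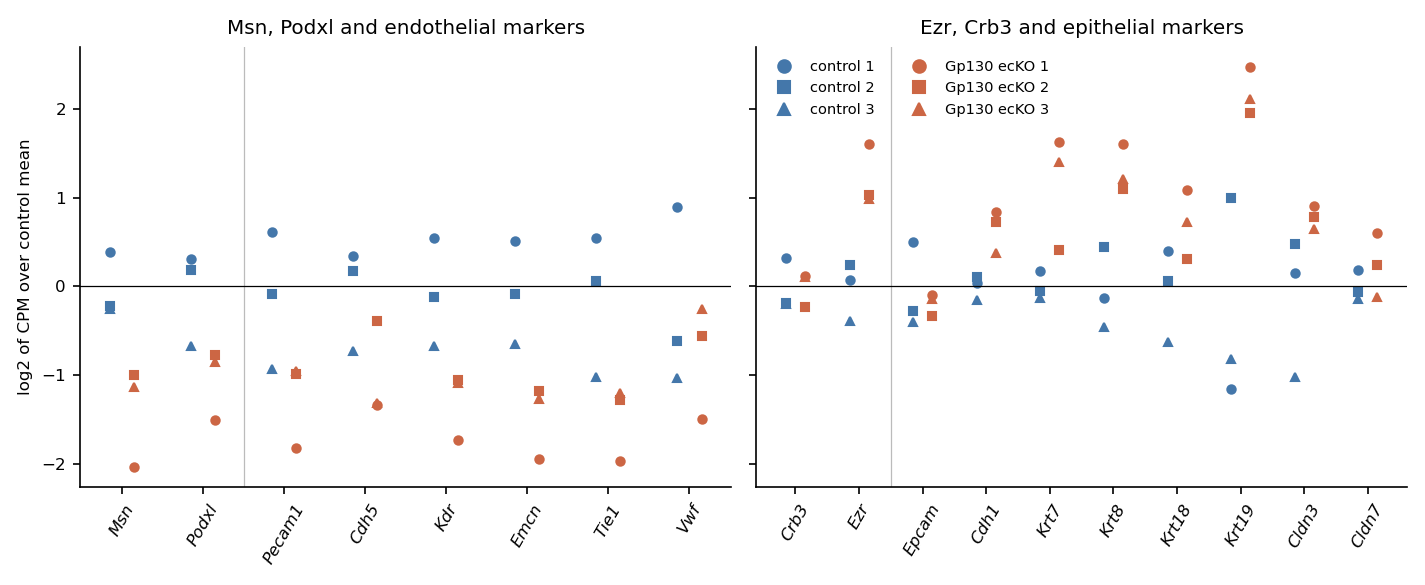
Log2 of the CPM of each uterus over the mean of the controls, for *Msn* and *Podxl* beside 6 endothelial markers (left) and for *Crb3* and *Ezr* beside 8 epithelial markers (right). *Msn* and *Podxl* lie below all 3 controls in every *Gp130* ecKO uterus, as do *Pecam1*, *Kdr*, *Emcn* and *Tie1*, while *Crb3* and *Epcam* overlap and *Ezr* lies above the controls as *Krt8* does.

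The aPKC kinases were the members of the apical complexes that separated the groups. *Prkci*, which encodes aPKC iota, was at 118, 156 and 106 CPM in the controls and 278, 231 and 193 in *Gp130* ecKO uteri, with a log2 fold change of 0.89 (standard error 0.22, FDR 0.0907). *Prkcz*, for aPKC zeta, was at 24.3, 22.9 and 19.8 against 46.0, 34.5 and 34.1 CPM, with a log2 fold change of 0.77 (standard error 0.20, FDR 0.0953). All 3 *Gp130* ecKO uteri were above all controls for both kinases, as in 15.7% of all genes tested. Of the 75-base stretches of *Prkcz* transcripts, 11.38% also occur in *Prkcz2* on the same strand, so its count depends on how RSEM divided those reads. Without control 2 the FDR was 0.0438 for *Prkci* and 0.0938 for *Prkcz*, and without *Gp130* ecKO 1 it was 0.264 and 0.28. The 6 other genes of these complexes overlapped between the groups, with log2 fold changes from −0.14 to 0.46. They include *Crb3*, the epithelial Crumbs protein, at 53.6, 37.9 and 37.5 against 46.7, 36.5 and 46.3 CPM, *Patj*, the scaffold that binds Crumbs through PALS1, at 130, 128 and 92.7 against 139, 119 and 90.6, and *Pard3*, the PAR scaffold, at 34.2, 33.9 and 32.4 against 43.8, 28.8 and 32.7. The 3 genes of PAR6, which ties aPKC to CDC42, were *Pard6a*, *Pard6b* and *Pard6g*, with log2 fold changes of 0.31, 0.46 and −0.14, and their shares of the summed TPM of the 3 overlapped between the groups.

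In the basolateral module, 4 of 6 genes were higher in every *Gp130* ecKO uterus, beside 15.7% of all genes tested. *Dlg3*, a membrane scaffold of the DLG family, was at 35.96, 63.5 and 46.7 CPM in the controls and 117, 112 and 113 in *Gp130* ecKO uteri. The *Gp130* ecKO values were nearly equal, with a fitted log2 difference of 1.23 (standard error 0.22, FDR 0.0636, and 0.0163 without control 2). Without *Gp130* ecKO 1 this difference was 1.21 (FDR 0.19). *Llgl2*, the LGL protein of epithelia, was at 56.3, 68.6 and 36.2 against 136, 103 and 96.5 CPM. Its log2 fold change was 1.06 (standard error 0.26, FDR 0.0925, and 0.0479 without control 2). Without *Gp130* ecKO 1 it was 0.89 (FDR 0.269). *Dlg5*, a larger DLG protein of junctions and vesicle delivery, was at 40.8, 56.0 and 48.5 against 81.1, 88.0 and 62.2 CPM, with a log2 fold change of 0.67 (standard error 0.20, FDR 0.115). *Dlg1* was at 97.2, 85.7 and 84.3 against 140, 114 and 101 CPM, a smaller difference of 0.41 (standard error 0.17, FDR 0.2). *Scrib* and *Llgl1* overlapped, with log2 fold changes of 0.19 and −0.01.

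Both Shroom genes of the set, whose proteins bind apical actin and narrow the apical face, were higher in every *Gp130* ecKO uterus. This held for 15.7% of all genes tested. *Shroom2* was at 38.9, 66.8 and 36.1 CPM in the controls and 206, 161 and 112 in *Gp130* ecKO uteri. Its log2 fold change was 1.76 (standard error 0.32, FDR 0.0636, and 0.0179 without control 2). Without *Gp130* ecKO 1 it was 1.53 (FDR 0.185). *Shroom3* was at 27.3, 47.9 and 40.5 against 79.0, 60.3 and 56.2 CPM. Its log2 fold change of 0.76 (standard error 0.25, FDR 0.131) was the smaller of the 2, and control 2 was the control nearest to the *Gp130* ecKO uteri for both. The remaining Shroom genes, which are not in the set, were lower in every *Gp130* ecKO uterus: *Shroom1* was at 4.13, 3.74 and 4.80 against 1.54, 1.88 and 2.03 CPM (log2 fold change −1.21, FDR 0.0971), and *Shroom4* had a log2 fold change of −0.41 (FDR 0.321).

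Of the 9 genes of the microvillus itself, 6 were expressed enough to be tested. The groups overlapped in 5 of these, and 1 was higher in every *Gp130* ecKO uterus, beside 15.7% of all genes tested. *Eps8*, a capping and bundling protein of actin at microvillus tips, was the exception, at 49.6, 37.7 and 52.0 CPM against 94.99, 78.4 and 65.9. The fitted log2 difference was 0.78 (standard error 0.21, FDR 0.0977). *Myo1a*, the motor of the intestinal brush border, was at 0.44, 1.39 and 1.07 against 13.0, 2.77 and 1.28 CPM. Its log2 fold change of 2.55 (standard error 0.91, FDR 0.151) rested mainly on *Gp130* ecKO 1 and was 1.08 without it. *Myo6*, the motor that moves toward the base of microvilli, was at 283, 257 and 198 against 214, 156 and 158 CPM, with overlapping groups and a fitted log2 difference of −0.48 (standard error 0.21, FDR 0.204).

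The bundlers *Vil1* and *Espn* were weakly expressed, and genes of the adhesion complex that links brush border tips were low or near 0. *Vil1*, for villin, ranged from 0.81 to 2.69 CPM and *Espn*, for espin, from 0.79 to 4.53. *Pls1*, for the core bundler plastin 1, is not in the set and ranged from 23.4 to 55.9 CPM, with overlapping groups. *Cdhr5*, a tip cadherin, ranged from 0.16 to 1.63 CPM. All 3 overlapped between the groups, and 26.07% of the exonic bases of *Vil1* are also covered by *Usp37* on the opposite strand. *Myo7b*, the motor of the tip complex, had 0 counts in every uterus, which allows a level of up to 0.12 CPM in control 1 and 0.20 in control 3 (3 counts per library, counting error only). The tip cadherin *Cdhr2* had 0 counts in 5 uteri and 0.04 CPM in *Gp130* ecKO 3, and the scaffold *Ush1c* reached 0.15 CPM at most. These 3 were not tested. Of the microvillus members, these 3 were thus near the limit of detection at this depth.

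Because related genes can share a role, the share of each paralogue was compared in TPM, which is per length, over the paralogues in the set. The sums leave out *Dlg2*, *Dlg4*, *Rab11b*, *Shroom1* and *Shroom4*, which were expressed but are not members. *Ezr* made up 54.3%, 56.5% and 57.8% of the summed TPM of the ERM genes in the controls and 90.7%, 76.7% and 80.1% in *Gp130* ecKO uteri. The share of *Msn* was 35.1%, 18.9% and 27.5% against 3.09%, 7.83% and 8.67%, and that of *Rdx* overlapped. The TPM ratio of *Ezr* to *Msn* was 1.55, 2.99 and 2.10 in the controls and 29.4, 9.80 and 9.24 in *Gp130* ecKO uteri. The 2 genes differ in the cell types that express them most, and the marker sums given above differed between the groups as well.

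Among the polarity paralogues, *Llgl2* made up 41.5%, 42.3% and 34.9% of the TPM of the LGL pair in the controls and 59.5%, 51.1% and 56.5% in *Gp130* ecKO uteri. In TPM it thus passed *Llgl1* in every *Gp130* ecKO uterus. In CPM, which is not per length, the ratio of *Llgl2* to *Llgl1* was 0.42, 0.42 and 0.31 in the controls and 1.00, 0.73 and 0.74 in *Gp130* ecKO uteri. *Rab25* was 11.3%, 16.8% and 12.02% of the sum with *Rab11a* against 30.3%, 22.8% and 27.7%. *Shroom2* was 49.4%, 52.3% and 32.8% of the sum with *Shroom3* against 76.6%, 77.6% and 69.0%. *Dlg3* was 23.7%, 31.9% and 27.2% of the sum with *Dlg1* and *Dlg5* against 34.4%, 36.7% and 39.03%. In these 4 sums the listed share was higher in every *Gp130* ecKO uterus, in TPM and in CPM. The exact two-sided permutation p was 0.1, the smallest that 3 uteri against 3 can give. Each of the 4 genes was itself higher in CPM in every *Gp130* ecKO uterus, so these shares add no separate support. As a TPM ratio to *Dlg1* alone, *Dlg3* overlapped, with control 2 at 0.818 and *Gp130* ecKO 1 at 0.815. The shares within aPKC overlapped.

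**Figure D4:**
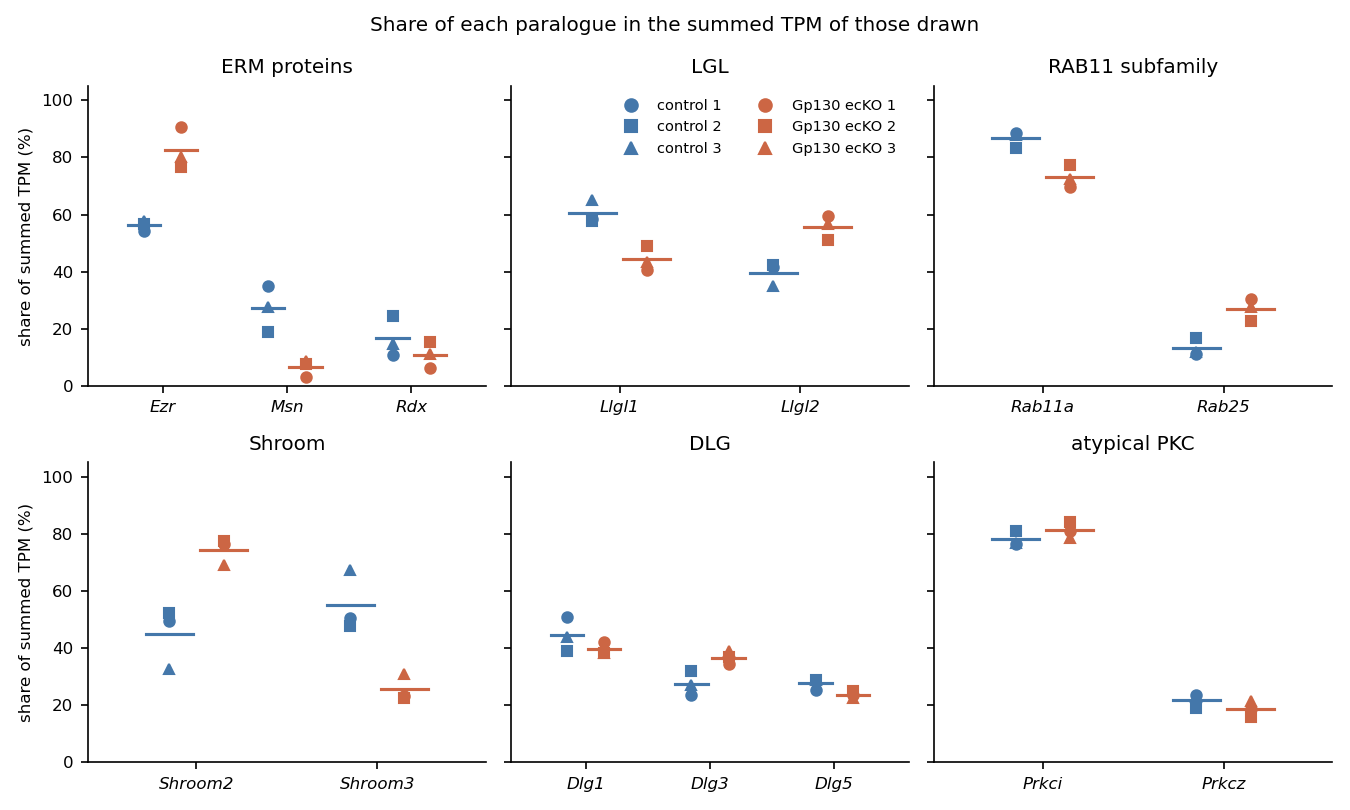
Share of each paralogue (%) in the summed TPM of the paralogues drawn in its panel, for each of 3 control and 3 *Gp130* ecKO uteri, with the group mean as a line. *Ezr* has means of 56.2% and 82.5% and *Llgl2* of 39.6% and 55.7%, while the shares of *Prkci* and *Prkcz* overlap.

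RSEM also lists for each gene a mean transcript length weighted by the estimated abundance of its isoforms, a readout that does not use the level of the gene. It was compared in the 33 members with more than 1 listed transcript. The groups did not overlap in 10 of them (30.3%), 5 longer and 5 shorter in *Gp130* ecKO uteri, beside 18.8% of 13575 genes. *Shroom2* was at 6397, 4726 and 5220 bases in the controls and 3699, 3687 and 4086 in *Gp130* ecKO uteri, from 6 transcripts of 832 to 7722 bases. *Homer1*, a gene known to give short and long scaffold forms, was at 4290, 4312 and 4521 against 3830, 3812 and 3941 bases, from 12 transcripts of 625 to 6545 bases. *Dlg1* was at 3845, 3581 and 3659 against 3119, 3134 and 3152 bases, with the *Gp130* ecKO uteri nearly equal. *Rab11fip1* was also shorter, at 7383, 7475 and 7542 against 7060, 6986 and 7183 bases.

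Means were longer without overlap between the groups in 5 members. *Patj*, whose CPM overlapped, was at 4552, 4209 and 4150 against 5261, 4900 and 5106 bases. *Myo6* was at 3437, 3866 and 3840 against 4130, 4117 and 4387 bases. *Shroom3* was at 4411, 3731 and 2892 against 4622, 4769 and 4544 bases, with a wide spread in the controls. *Dlg5* was at 3238, 3157 and 3224 against 3239, 3741 and 3273 bases, a separation by 1 base that rests on *Gp130* ecKO 2 for its size. For *Stx3*, which was shorter, the group means were 2283 and 2210 bases, and for *Rab25*, which was longer, 1069 and 1073. The group means were 5447 and 3824 bases for *Shroom2*, 3695 and 3135 for *Dlg1* and 4374 and 3861 for *Homer1*. Isoforms were estimated from single reads of 75 bp, and which transcripts lay behind these means was not analysed here.

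**Figure D5:**
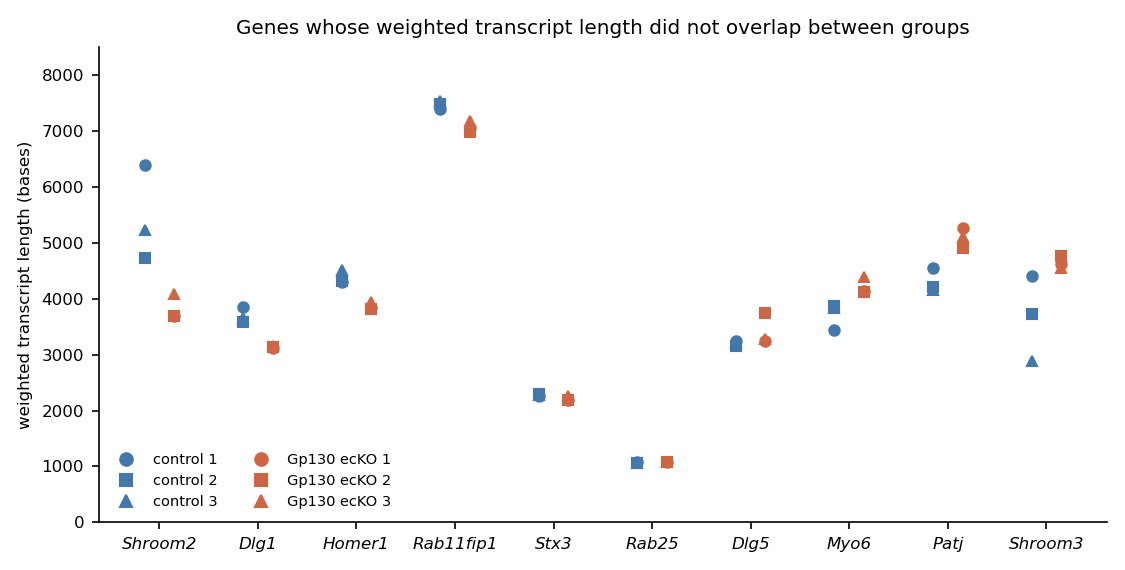
Mean transcript length weighted by isoform abundance (bases) in each of 3 control and 3 *Gp130* ecKO uteri, for the 10 genes whose groups did not overlap, ordered by the difference. *Shroom2*, *Dlg1* and *Homer1* lie lower and *Patj*, *Myo6* and *Shroom3* higher in *Gp130* ecKO uteri.

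A list of 80 other genes of the same roles was read beside the members, of which 79 were found and 69 tested. Of the 69, 0 were called by the quasi-likelihood test, 10 were higher and 14 lower at an unadjusted p under 0.05 (all genes tested: 12.1% and 12.9%), and the median log2 fold change was −0.03. DESeq2 called 3 higher and 5 lower (4.42% and 4.87% of all genes), and the exact test 2 and 4 (3.75% and 3.79%). The smallest p was that of *Rab11fip4*, a RAB11 effector of the same family as *Rab11fip1*, at 0.89, 2.62 and 3.00 against 21.0, 17.2 and 17.0 CPM (log2 fold change 3.10, FDR 0.0548). *Rab11fip5*, another RAB11 effector, was lower, at 47.8, 30.5 and 39.7 against 15.1, 19.7 and 17.5 CPM. The actin bundler *Fscn1* was lower in every *Gp130* ecKO uterus, at 137, 119 and 148 against 37.4, 73.6 and 35.8 CPM (log2 fold change −1.46, FDR 0.0732). So was the scaffold *Homer3*, at 16.02, 12.03 and 19.3 against 5.02, 6.69 and 6.67 CPM (−1.36, FDR 0.0732). *Epb41l5*, a FERM protein that binds Crumbs, was higher at 42.2, 52.0 and 32.5 against 88.6, 75.1 and 67.6 CPM. By role, the other trafficking genes had 7 higher and 4 lower of 24 at an unadjusted p under 0.05. The other microvillus genes had 0 higher and 3 lower of 15 (all genes tested: 12.1% and 12.9%). No other role had more than 2 higher or 3 lower. By the sign of the fit alone, 16 of the trafficking genes were higher and 8 lower, and 6 of the microvillus genes were higher and 9 lower.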

How the data were processed

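Poly(A) RNA of whole uteri from 3 control and 3 *Gp130* ecKO females was sequenced as single reads of 75 bp. Per the labels and the methods, the authors trimmed reads with fastp 0.23.2, removed ribosomal reads with SortMeRNA, mapped to GRCm39 with STAR 2.7.10a and deposited RSEM 1.3.3 expected counts, TPM, FPKM and transcript lengths per gene. RSEM divides reads that fit several genes. The annotation version and the use of strand in counting are not given in the sources used here. The deposited FPKM was not used here, and the TPM served only for levels and shares.

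Expected counts were rounded, filtered with filterByExpr, scaled by TMM and tested in edgeR 4.0.16 (R 4.3.3) with the quasi-likelihood F test (legacy set to false) and Benjamini-Hochberg adjustment over 16605 genes. Called means an FDR under 0.05 and more than 2-fold. The methods name edgeR but no test. Standard errors are the log2 fold change over the square root of F. For single values the exact permutation test was two-sided, with levels taken as log2(CPM + 0.5). Alternatives included DESeq2 1.42.0, other edgeR tests and scalings, filters, a fit without rounding, a block for the replicate number and fits that each omit a uterus. The script was tested on simulated data. The members, gene lists and tests were chosen with earlier results of these data known. Symbols and coordinates came from GENCODE M39 on GRCm39 (56017 of 56748 identifiers matched). All members were named. Values per uterus were given for those at an unadjusted p under 0.05 and those not overlapping by more than 2-fold. Weighted lengths per uterus were given for members whose groups did not overlap in length and differed by over 100 bases. Of the other genes, values per uterus were given for the 5 with the smallest p. Some genes outside these rules were given by value after their values were seen. Promoters were taken for at most 5 members with the smallest p. Total counts ranged from 13960748 to 25906443, and no pair of libraries within a group was near identical.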

Additional observations from a re-analysis of the deposited data

How the results depend on the processing

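Under 16 alternative fits, the log2 fold changes of the 36 members gave 576 values. Of these, 495 kept direction and side of the threshold, 53 (in 16 members) passed an FDR of 0.05, and 28 (in 9 members, whose log2 fold changes lay between −0.26 and 0.20) changed sign. The count over all genes, 26, became 1542 with DESeq2, 1252 with the exact test, 1317 with the likelihood ratio test, 7 with the legacy quasi-likelihood form and 105 with no filter. The replicate block gave 6. The deviations of same-numbered uteri correlated at 0.104, 0.069 and −0.196, and those of differently numbered uteri at −0.311 to 0.22. The numbers thus gave no sign of pairing, which deviations from means of 3 uteri cannot exclude. Leaving out 1 uterus gave 1 to 892 calls, the latter without control 2. The members called, 0, became 11 with DESeq2, 10 with the exact test, 11 with the likelihood ratio test, 2 with no filter (*Rab17* and *Homer1*) and 0 to 8 with 1 uterus left out, with 8 only without control 2. The other genes called, 0, became 8, 6, 6 and 1 under those same 4 settings and 0 to 5 with 1 uterus left out. The members lower at an unadjusted p under 0.05, 2, were 2 to 4 with 1 uterus left out, with 4 without *Gp130* ecKO 1, and the members higher, 16, were 13 to 17. The causes were not tested. The 17 members whose groups did not overlap were 15 in deposited TPM and 18 in CPM without TMM.

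Sign changes outside single left-out uteri were those of *Crb3* (0.00 with a CPM of at least 1 in 3 uteri, −0.06 with upper quartile scaling), *Patj* (0.00 with DESeq2, 0.01 with RLE scaling, 0.02 with no filter), *Pard3* (0.00 with upper quartile scaling) and *Llgl1* (0.00 with DESeq2, RLE scaling and the replicate block, 0.02 with no filter). With 1 uterus left out, log2 fold changes ranged from −0.09 to 0.22 for *Crb3*, −0.15 to 0.17 for *Patj*, −0.12 to 0.20 for *Pard3*, −0.12 to 0.16 for *Llgl1*, −0.28 to 0.74 for *Rdx*, −0.33 to 0.54 for *Vil1*, −0.29 to 0.18 for *Rab11a*, −0.62 to 0.01 for *Myo5b* and −0.21 to 0.31 for *Mal2*. Depth limits *Vil1*, *Espn*, *Cdhr5*, *Myo1a* and the 3 untested genes, most of all in control 3.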
